A study of Mus musculus with 16 samples.

Results

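The 35 genes described here encode proteins that copy chromosomal DNA. They were chosen as replication genes with earlier results of these data known, and were mapped from NCBI Gene IDs to mouse symbols. All 35 were found among the 36528 Gene IDs measured in each library. By role they fall into 8 groups: the MCM2-7 helicase (Mcm2 to Mcm7), its loading (Cdc6, Cdt1), its activation (Mcm10, Cdc7, Cdc45, Gins1 to Gins4), the sliding clamp and its loader (Pcna, Rfc2 to Rfc5), polymerases and primase (Pola1, Pold1, Pole, Pole2, Prim1, Prim2), nucleotide supply (Rrm1, Rrm2, Tyms), lagging strand and single-strand binding (Rpa2, Fen1, Lig1), and chromatin behind the fork (Chaf1a, Chaf1b, Uhrf1).

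RNA was sequenced from cells that had been sorted into GFP+ and GFP- fractions from mouse intestinal tumours of the genotypes AKVPL and AKVPSL, with 4 libraries for each combination and 16 in all. The series' design text calls the fractions Lgr5+ and Lgr5-, so GFP is read here as a reporter of Lgr5, a receptor of intestinal stem cells. The labels spell out neither genotype. In published mouse lines named this way the shared letters include a Villin-driven Cre that acts in the intestinal epithelium and an Lgr5 reporter, and the added S stands for altered Smad4. No untransformed tissue is among these groups, ages are not given, and the labels do not say how the tumours were raised. The labels disagree on the tissue: each of the 16 titles has the word colon, but 15 libraries are entered as small intestine in the tissue field, and AKVPSL GFP- replicate 1 is the 1 entered as colon. The labels do not say that replicates were separate animals, so the spread behind the p-values is that among these libraries and may be technical in part.

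Before a cell divides, the origin recognition complex, Cdc6 and Cdt1 place inactive MCM2-7 rings on DNA. At the start of S phase the kinase Cdc7, with Mcm10, Cdc45 and the GINS complex, turns those rings into moving helicases, after which primase, polymerases alpha, delta and epsilon, the Pcna clamp and the Rfc clamp loader copy the strands. Most of these genes are transcribed in late G1 under E2F factors, which Rb1 and its relatives restrain, and in the gut they are typical of dividing crypt and tumour cells.

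Promoter windows from RefSeq (GRCm38.p6) were searched for letters of E2F sites because of that known route of control. A window held the 250 bases before and the 50 bases after a transcript start, and 34 windows were given for 28 of the 35 genes. The letters searched on both strands were TTTCGCGC, TTTGGCGC, TTTCCCGC, TTTGGCGG and TTCCCGCC, which can overlap each other, and separately the CCAAT box. At least 1 of the 5 E2F-type words stood in 19 of 34 windows (55.9%), against 3.945% of all 32851 windows in the table and 6.146% of the 16530 windows of genes tested here. CCAAT stood in 19 of 34 windows (55.9%), against 37.4% of all windows. The 5 upstream stretches printed here run 5′ to 3′ on the gene's strand and end at the base before the start. Capitals mark the words found. Mcm6 (GRCm38.p6 chr1:128359706-128359955, minus strand) had the most E2F-type words upstream, 3, with 2 CCAAT. Chaf1a (chr17:56040166-56040415, plus strand) had 2 that overlap, Rrm1 (chr7:102441445-102441694, plus strand) and Prim1 (chr10:128014965-128015214, plus strand) had 1 each, and Rrm2 (chr12:24708004-24708253, plus strand) had 0 and 1 CCAAT.
Mcm6: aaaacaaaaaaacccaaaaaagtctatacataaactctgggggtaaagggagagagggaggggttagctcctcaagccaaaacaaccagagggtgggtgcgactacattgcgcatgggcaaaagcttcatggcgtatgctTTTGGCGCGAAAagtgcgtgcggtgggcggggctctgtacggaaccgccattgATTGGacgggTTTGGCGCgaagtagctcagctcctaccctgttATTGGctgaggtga
Chaf1a: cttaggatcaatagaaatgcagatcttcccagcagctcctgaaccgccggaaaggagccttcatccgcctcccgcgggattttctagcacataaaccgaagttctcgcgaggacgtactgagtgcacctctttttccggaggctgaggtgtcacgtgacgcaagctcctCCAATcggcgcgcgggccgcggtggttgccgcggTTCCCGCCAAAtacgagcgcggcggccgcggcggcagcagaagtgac
Rrm1: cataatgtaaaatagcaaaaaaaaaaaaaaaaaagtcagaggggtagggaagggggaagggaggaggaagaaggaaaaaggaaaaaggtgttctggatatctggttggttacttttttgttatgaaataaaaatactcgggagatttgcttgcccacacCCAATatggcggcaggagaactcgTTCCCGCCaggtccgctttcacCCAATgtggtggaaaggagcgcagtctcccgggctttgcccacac
Prim1: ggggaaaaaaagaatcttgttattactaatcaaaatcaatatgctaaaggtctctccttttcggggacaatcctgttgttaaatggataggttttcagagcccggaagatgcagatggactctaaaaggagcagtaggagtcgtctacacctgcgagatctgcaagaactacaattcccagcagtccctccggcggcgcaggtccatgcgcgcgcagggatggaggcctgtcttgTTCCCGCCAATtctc
Rrm2: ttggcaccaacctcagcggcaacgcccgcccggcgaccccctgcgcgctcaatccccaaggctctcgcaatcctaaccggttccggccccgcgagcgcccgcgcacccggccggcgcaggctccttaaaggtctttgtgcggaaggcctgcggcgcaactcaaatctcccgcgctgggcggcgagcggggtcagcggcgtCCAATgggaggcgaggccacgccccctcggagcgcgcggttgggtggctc

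Library totals ran from 10881115 to 41601600 counts. All 35 genes passed the filter on low counts, which kept 18072 genes. Levels by sample are given as CPM (counts scaled by library size, with TMM factors). Lgr5 was higher in the GFP+ fraction of both genotypes, at 296, 297, 247 and 345 CPM in AKVPL GFP+ against 70.8, 57.6, 59.8 and 74.6 CPM in AKVPL GFP-, and the epithelial gene Epcam was high in all 4 groups (group means 1374 to 1938 CPM). Markers of other cell types were present as well, most of all in AKVPL GFP- cells, and their values stand beside the comparisons.

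Per unit of transcript length, the highest levels among the 35 genes were those of the clamp loader subunit Rfc2 and the helicase subunit Mcm6. On the deposited RPKM scale Rfc2 averaged 46.8 over the 16 libraries (26.0 to 68.4) and Mcm6 45.0 (26.4 to 59.9), so their ranges overlapped. The lowest were Gins3 at 1.94 RPKM and the helicase loader Cdc6 at 1.62 RPKM. Subunits that act in a fixed ratio had unequal RNA levels: within MCM2-7 the means ran from 20.8 RPKM (Mcm5) to that of Mcm6, and within GINS from that of Gins3 to 22.5 RPKM (Gins4). Pcna, the sliding clamp, stood at only 9.08 RPKM, rank 23 of 35. Only uniquely aligned reads were counted, and the pseudogene Pcna-ps2 is 99.2% identical to a Pcna transcript over 781 bases, so the Pcna level is uncertain. Near copies over at least 25% of a transcript also exist for Cdc6, Fen1, Mcm4, Mcm7 and Uhrf1, whose levels are uncertain for the same reason. Whether the counting used strand is not stated in the labels or headers, so reads of genes that overlap a neighbour, such as Cdc45 with Ufd1, Rfc4 with Eif4a2, Fen1 with Tmem258, Chaf1a with Ubxn6 and Gins2 with Gse1, cannot be fully assigned.

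**Figure D1:**
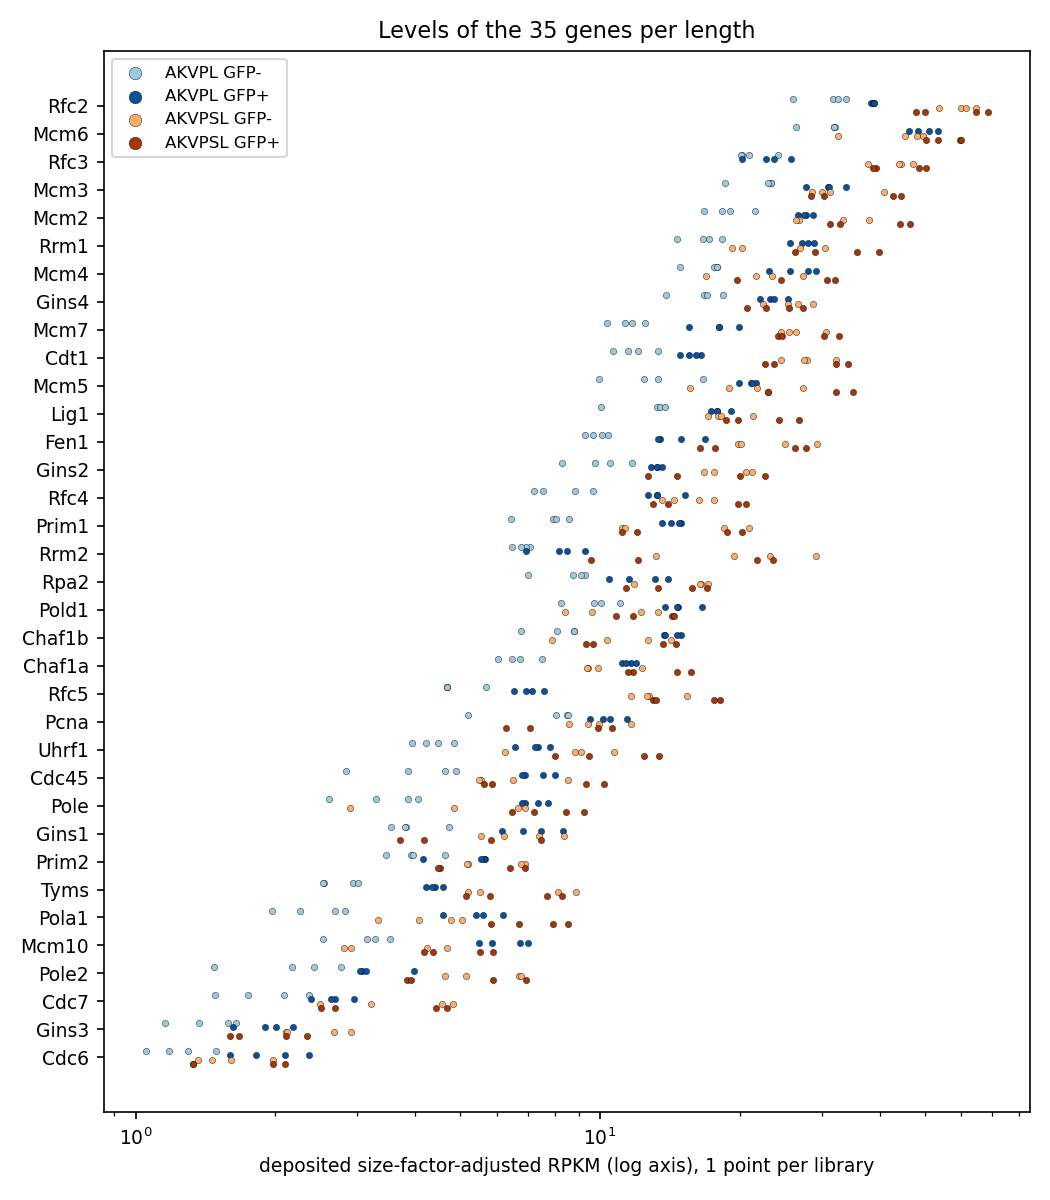
Deposited RPKM (log axis) of each of the 35 genes, 1 point per library, coloured by group and ordered by the mean over all libraries. Rfc2 and Mcm6 are at the top and Cdc6 at the bottom, and the light blue points, AKVPL GFP-, lie furthest left for most genes.

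Summed over the 35 genes, AKVPL GFP- cells had the smallest share of counts, 0.0991 ± 0.00796% (SD, n = 4), against 0.155 ± 0.00828% in the GFP+ cells of that genotype. The share was 0.167 ± 0.0224% in GFP- cells and 0.189 ± 0.0384% in GFP+ cells of AKVPSL. The mean log2(CPM + 0.5) of the 35 genes was 4.40, 4.38, 4.47 and 4.14 in AKVPL GFP- replicates 1 to 4 and 5.16, 5.06, 5.00 and 4.99 in AKVPL GFP+. In AKVPSL it was 5.47, 5.30, 5.00 and 5.10 in GFP- and 5.54, 5.62, 5.06 and 5.06 in GFP+ replicates 1 to 4. AKVPL GFP- libraries lay below all 12 others, and in AKVPSL replicates 1 and 2 lay above replicates 3 and 4 in both fractions. Taking the GFP+ and GFP- library that share a replicate number together, 35, 35, 34 and 35 of the 35 genes were higher in GFP+ in the 4 AKVPL pairs, and 23, 30, 17 and 16 in the 4 AKVPSL pairs. These are bulk RNA values, in which fewer replicating cells and less RNA per replicating cell cannot be told apart.

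**Figure D2:**
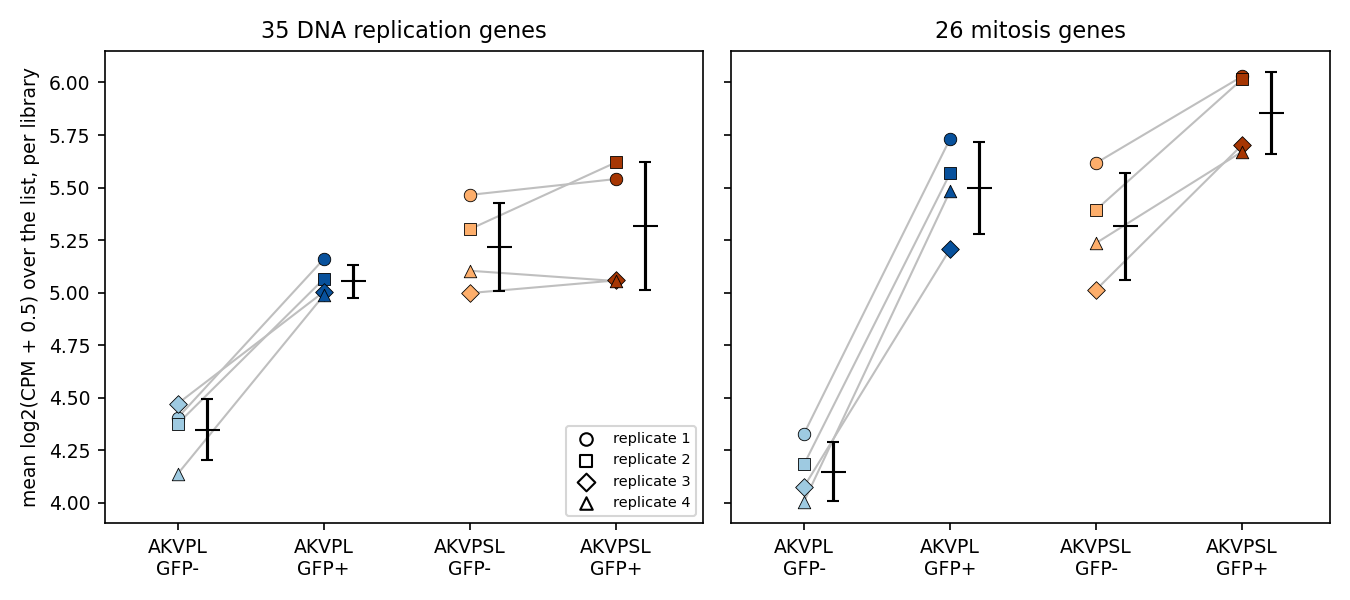
Mean log2(CPM + 0.5) over the 35 replication genes (left) and over 26 mitosis genes (right) in each library, with a line joining each GFP- library to the GFP+ library with its replicate number and bars for group mean ± SD. For the replication genes the lines rise in all 4 AKVPL pairs and are nearly flat in AKVPSL replicates 1, 3 and 4, while for the mitosis genes all 8 lines rise.

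In AKVPL tumours, GFP+ cells had more replication RNA than GFP- cells, with calls in every role group under TMM scaling, but with none for helicase loading or the lagging strand when libraries were scaled on epithelial markers. Of the 35 genes, 32 rose in GFP+ cells and 0 fell, where 22.6% of all tested genes rose and 16.5% fell (edgeR quasi-likelihood test, Benjamini-Hochberg adjusted p under 0.05). All 35 log2 fold changes were above 0, from 0.21 to 1.26 with a median of 0.71, beside a median of 0.14 over all tested genes. Single log2 fold changes are given ± SE. In 33 of the 35 every GFP+ library exceeded every GFP- library, which held for 24.7% of tested genes. Rises passed the test for 6 of 6 MCM2-7 genes (median 0.74), 2 of 2 loading genes, 6 of 7 activation genes, 4 of 5 clamp and clamp loader genes, 6 of 6 polymerase and primase genes (median 0.85), 2 of 3 nucleotide genes, 3 of 3 lagging strand and single-strand binding genes, and 3 of 3 chromatin genes.

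The largest difference was that of Pola1, the catalytic subunit of polymerase alpha, which extends the primers of every new strand. It stood at 17.1, 13.7, 16.2 and 11.9 CPM in AKVPL GFP- replicates 1 to 4 and 36.7, 40.1, 34.6 and 29.7 CPM in AKVPL GFP+. Every GFP+ library was well above every GFP- library, and the log2 fold change was 1.26 ± 0.16 (edgeR adjusted p = 7.16e-06). Pole, the leading strand polymerase, had 32.6, 27.8, 34.2 and 21.9 CPM in GFP- and 70.7, 66.4, 61.5 and 61.1 CPM in GFP+ cells. Again the groups did not overlap, with a log2 fold change of 1.15 ± 0.21 (edgeR adjusted p = 0.000478). Mcm10, which helps to activate the helicase, had 14.0, 15.1, 13.4 and 10.8 CPM in GFP- and 32.2, 30.7, 26.4 and 24.9 CPM in GFP+ cells, a log2 fold change of 1.10 ± 0.17 (edgeR adjusted p = 7.44e-05).

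Mcm6, a subunit of the helicase ring whose promoter is printed above, had 95.3, 95.6, 95.0 and 78.4 CPM in AKVPL GFP- and 173, 163, 152 and 147 CPM in AKVPL GFP+ libraries. The groups were apart, with the lowest GFP- value in replicate 4, and the log2 fold change was 0.80 ± 0.12 (edgeR adjusted p = 4.16e-05). Chaf1a, the large subunit of the factor that deposits histones on new DNA, rose from 22.0, 22.9, 25.5 and 20.4 CPM to 42.9, 43.5, 40.1 and 41.2 CPM, by 0.88 ± 0.12 (edgeR adjusted p = 1.6e-05). Rrm1, the large subunit of ribonucleotide reductase, rose from 70.6, 68.4, 75.1 and 60.1 CPM to 129, 123, 112 and 119 CPM, by 0.82 ± 0.15 (edgeR adjusted p = 0.000259). Lig1, which joins the fragments of the lagging strand, rose from 47.9, 48.7, 49.9 and 36.2 CPM to 74.9, 69.0, 68.3 and 67.0 CPM, by 0.61 ± 0.12 (edgeR adjusted p = 0.000671). For all of these the 2 fractions were fully separated.

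The 3 genes that did not pass were the kinase Cdc7 (0.57 ± 0.24, edgeR adjusted p = 0.061), the small reductase subunit Rrm2 (0.37 ± 0.27, edgeR adjusted p = 0.282) and the clamp loader subunit Rfc3 (0.21 ± 0.11, edgeR adjusted p = 0.139). Rrm2 stood at 14.5, 15.8, 15.5 and 15.1 CPM in GFP- and 22.5, 19.6, 20.2 and 16.6 CPM in GFP+ cells, and Rfc3 at 32.0, 30.9, 36.9 and 30.7 CPM and 39.3, 33.1, 36.8 and 42.2 CPM. The Rrm2 values do not overlap but lie close together, and those of Rfc3 overlap. The test estimated the spread of each gene over all 16 libraries, AKVPSL included. The SD of Rrm2 was 0.265 RPKM in AKVPL GFP- and 0.971 RPKM in AKVPL GFP+ libraries. In AKVPSL it was 6.74 RPKM in GFP- and 6.95 RPKM in GFP+ libraries. Gins2, Gins3 and Prim2 passed here but not with the DESeq2 test or DESeq2 size factors, and Pcna not with the latter. With the replicate number kept as a block, Cdc7 (0.59, edgeR adjusted p = 0.00442) and Rrm2 (0.37, edgeR adjusted p = 0.0268) passed, 34 of 35 in all. In that fit 4576 of 18072 tested genes rose. Cdc7 also passed without GFP- replicate 1. Leaving out single AKVPL libraries ended the calls of Gins2, Gins3, Pcna, Pole2 or Prim2: Gins3 without GFP+ replicate 1, 2 or 4 or GFP- replicate 2 or 4, Prim2 without GFP+ replicate 1 or 2 or GFP- replicate 1, 2 or 4, Gins2 without GFP- replicate 1 or 4, Pcna without GFP+ replicate 3 or GFP- replicate 4, and Pole2 without GFP+ replicate 1 or GFP- replicate 4 (edgeR adjusted p from 0.0507 to 0.126).

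Markers of other cells moved with this comparison. In AKVPL GFP+ cells, 13 of 15 leukocyte markers, 10 of 12 fibroblast, 9 of 10 endothelial and 7 of 8 mast cell markers fell, and 16 of 26 epithelial markers rose. The summed leukocyte markers ran from 2691 to 5097 CPM in GFP- and 251 to 696 CPM in GFP+ libraries, and the summed fibroblast markers from 4749.8 to 10198 CPM and 681 to 1315 CPM. The endothelial sums were 429.6 to 766 CPM and 131 to 167 CPM, and the mast cell sums 329 to 690.3 CPM and 64.8 to 78.8 CPM. The defining markers Ptprc, Cd74, Col1a1 and Pecam1 had counts in all 16 libraries, and Cpa3 was at 0 in AKVPSL GFP+ replicate 1 alone. With libraries scaled on the 26 epithelial markers instead, the median over all genes moved by -0.43. Under that scaling 13 of the 35 genes passed as higher with a median of 0.28, where 593 of 18072 tested genes did. Rfc2 was at -0.0082. Cdc6 (0.32), Cdt1 (0.08), Rpa2 (0.20), Fen1 (0.24) and Lig1 (0.18) were among the 19 genes whose calls ended, which left 0 of 2 loading genes and 0 of 3 lagging strand and single-strand binding genes. Such a scaling moves all genes nearly alike, so the distance between the medians of the 35 genes and of all genes, 0.57, stays nearly the same by construction. The part of these cells in the result was not otherwise tested. Of all calls in this comparison, 57.84% were higher in GFP+ with TMM, 42.09% with DESeq2 size factors and 7.75% with epithelial scaling.

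In AKVPSL tumours, fewer replication genes passed between the fractions. In GFP+ cells 7 of 35 rose and 0 fell, where 22.4% of tested genes rose and 24.6% fell, so the share of higher genes (7 of 35) was near the background. The genes that rose were Pola1, Pole, Mcm5, Mcm6, Mcm10, Rrm1 and Chaf1a. The median was 0.07, beside -0.01 over all genes, and 22 of 35 values were above 0. Only Pola1 and Mcm6 had fractions that did not overlap, which held for 19.5% of tested genes in this direction.

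Pola1 stood at 32.6, 30.8, 21.5 and 26.4 CPM in AKVPSL GFP- replicates 1 to 4 and 51.5, 55.3, 43.2 and 37.8 CPM in GFP+, a log2 fold change of 0.75 ± 0.15 (edgeR adjusted p = 0.000582). It was the 1 gene of the 7 that passed under all 16 alternatives of this comparison (edgeR adjusted p up to 0.00566). Pole had 59.9, 61.9, 26.1 and 43.7 CPM in GFP- and 76.6, 83.3, 65.1 and 58.4 CPM in GFP+ cells, with the lowest value in GFP- replicate 3 and overlapping fractions, and a log2 fold change of 0.56 ± 0.21 (edgeR adjusted p = 0.0353). Mcm6 had 144, 104, 154 and 158 CPM and 191, 191, 170.4 and 161 CPM, a log2 fold change of 0.35 ± 0.12 (edgeR adjusted p = 0.02). Its GFP- replicate 2 was well under the other GFP- libraries. Rrm1 had 134, 83.9, 88.7 and 119 CPM in GFP- and 176, 158, 127 and 116 CPM in GFP+ libraries (0.44 ± 0.14, edgeR adjusted p = 0.0187), and Chaf1a 44.6, 34.1, 34.1 and 36.0 CPM and 53.6, 57.0, 42.8 and 41.8 CPM (0.39 ± 0.12, edgeR adjusted p = 0.00991). The fractions of Rrm1, Chaf1a, Mcm5 (0.44) and Mcm10 (0.45) overlapped. Lig1, with 82.3, 69.2, 66.0 and 70.6 CPM in GFP- and 94.3, 104, 76.6 and 72.3 CPM in GFP+ libraries, did not pass (0.27 ± 0.12, edgeR adjusted p = 0.0745).

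At the other end stood Gins1, a subunit of the GINS complex of the active helicase. It had 13.0, 14.7, 9.80 and 11.0 CPM in AKVPSL GFP- and 10.3, 13.2, 6.57 and 7.40 CPM in AKVPSL GFP+ libraries. The fractions overlapped and the log2 value was -0.37 ± 0.20 (edgeR adjusted p = 0.135). Rrm2 had 69.9, 55.4, 31.6 and 46.6 CPM in GFP- and 52.4, 56.4, 22.9 and 28.9 CPM in GFP+ libraries, with a wide spread inside both fractions and a log2 value of -0.34 ± 0.26 (edgeR adjusted p = 0.292). With the replicate number as a block 11 genes rose and 2 fell, where 4554 and 4712 of 18072 tested genes did. Mcm2 (0.31, edgeR adjusted p = 0.0322), Pold1 (0.25, edgeR adjusted p = 0.0328), Lig1 (0.26, edgeR adjusted p = 0.0496) and Uhrf1 (0.31, edgeR adjusted p = 0.0427) joined the higher genes. The lower ones were Gins1 (-0.40, edgeR adjusted p = 0.0165) and Rrm2 (-0.38, edgeR adjusted p = 0.0157).

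The count of 7 rested on single libraries. It was 1 without AKVPSL GFP+ replicate 1, 2 without GFP+ replicate 2, 4 without GFP- replicate 2, 3 without GFP- replicate 3 or 4, 11 without GFP+ replicate 4, and 1 when only the 8 AKVPSL libraries were fitted. Of all tested genes, 2952 of 18446 were higher without GFP+ replicate 1 and 3934 of 18425 without GFP+ replicate 2. Higher genes numbered 3927 of 18420 without GFP- replicate 2, 3511 of 18446 without GFP- replicate 3 and 3368 of 18465 without GFP- replicate 4. They numbered 3702 of 18460 without GFP+ replicate 4, and 3173 of 16516 in the fit of the 8 AKVPSL libraries. Without GFP+ replicate 2, Gins1 passed as lower (-0.58, edgeR adjusted p = 0.0212), and Mcm2 passed as higher without GFP+ replicate 3 or 4 or GFP- replicate 1. Between these fractions 14 of 15 leukocyte, 12 of 12 fibroblast, 8 of 10 endothelial and 7 of 8 mast cell markers fell in GFP+ cells, and of 26 epithelial markers 5 rose and 7 fell (median -0.01). The leukocyte sums were 666 to 1977 CPM in GFP- and 42.5 to 178 CPM in GFP+ libraries, and the fibroblast sums 1803 to 3042 CPM and 242 to 1141 CPM. The endothelial sums were 192 to 458 CPM and 161 to 204 CPM, and the mast cell sums 30.3 to 139 CPM and 2.97 to 9.21 CPM. Their part in these values was not tested.

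**Figure D3:**
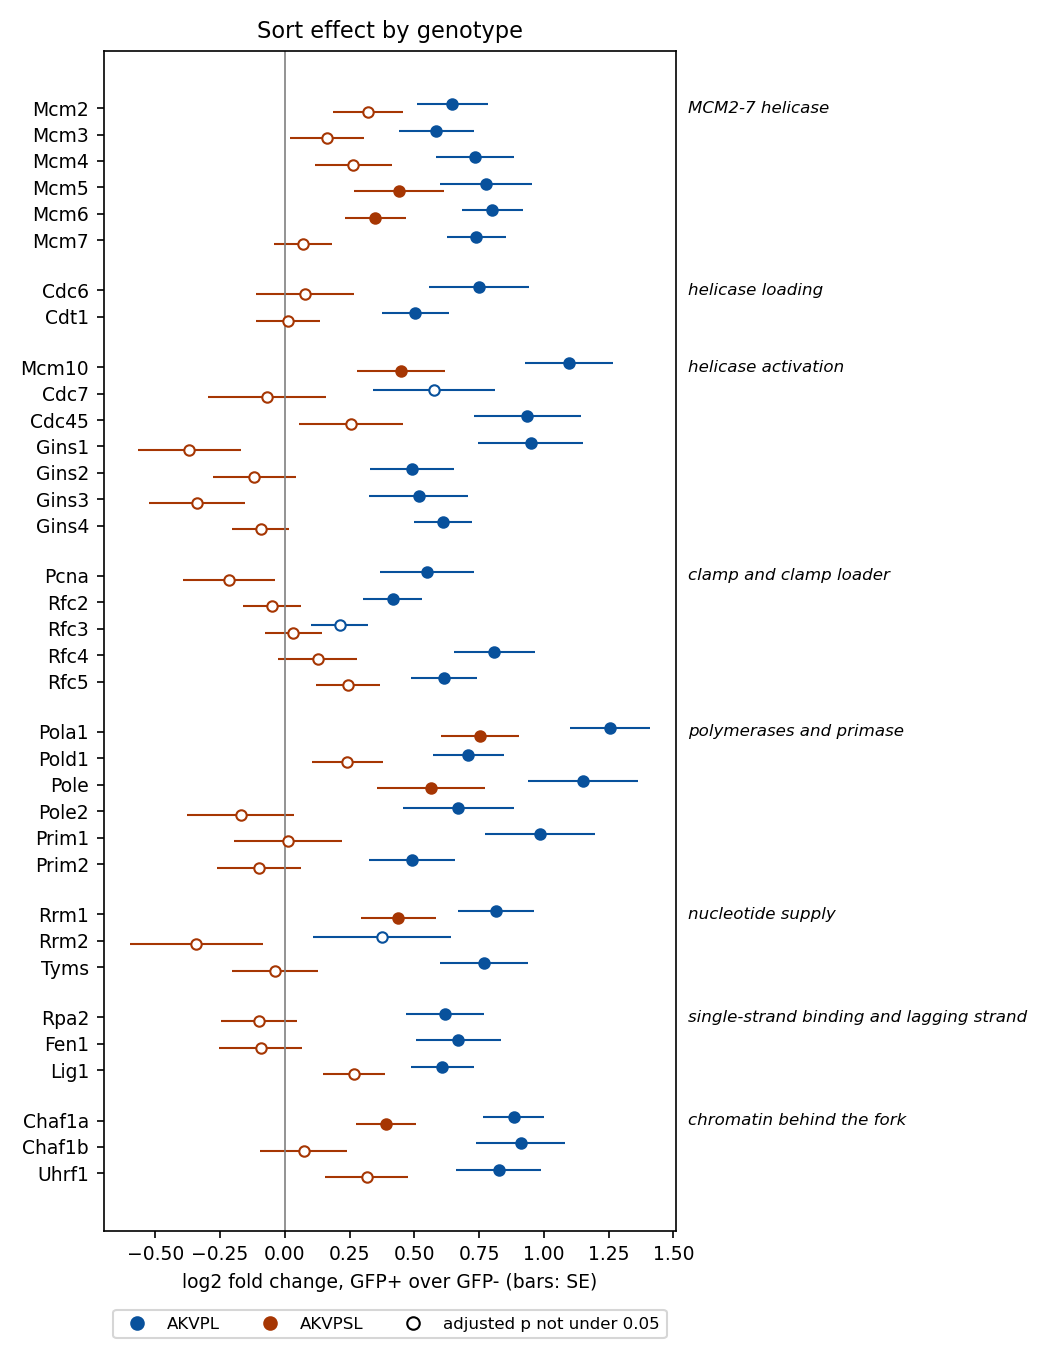
Log2 fold change of GFP+ over GFP- cells (± SE) for the 35 genes in AKVPL and AKVPSL, grouped by role, with filled symbols for an edgeR adjusted p under 0.05. The AKVPL values run from 0.21 to 1.26 and lie to the right of the AKVPSL values for every gene.

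The difference between the fractions was smaller in AKVPSL than in AKVPL for 13 of the 35 genes, by the test of the interaction, and larger for 0. Over all tested genes 13.7% were lower and 7.01% higher in this test. All 35 values were below 0, with a median of -0.61 beside -0.10 over all genes. The 13 were Gins1, Gins3, Gins4, Mcm7, Pcna, Rfc2, Rfc4, Prim1, Tyms, Rpa2, Fen1, Chaf1a and Chaf1b, so they came from every role group except helicase loading. This comparison shares its libraries with the 2 before it.

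The largest such value was that of Gins1. In AKVPL it had 7.83, 6.32, 6.29 and 5.84 CPM in GFP- and 14.9, 12.1, 10.7 and 13.2 CPM in GFP+ libraries, fully apart and with GFP+ higher by 0.95 ± 0.20 (edgeR adjusted p = 0.00123), while its AKVPSL fractions overlapped as given above. The difference was -1.32 ± 0.28 (edgeR adjusted p = 0.0038), and Gins1 was the 1 gene that passed under all 23 alternatives. Prim1, the catalytic subunit of primase, had 12.5, 13.5, 12.7 and 10.1 CPM in GFP- and 25.5, 23.9, 24.6 and 22.9 CPM in GFP+ libraries of AKVPL. In AKVPSL it had 31.1, 35.1, 18.7 and 19.1 CPM in GFP- and 31.7, 34.1, 18.8 and 20.2 CPM in GFP+ libraries. The fractions were apart in AKVPL and lay close together within each AKVPSL replicate number, and the difference was -0.97 ± 0.30 (edgeR adjusted p = 0.0281). Gins4 had 23.5, 25.8, 23.8 and 19.4 CPM in GFP- and 38.5, 33.2, 34.4 and 35.4 CPM in GFP+ libraries of AKVPL. In AKVPSL it had 37.9, 42.9, 40.0 and 33.7 CPM in GFP- and 38.5, 41.0, 31.1 and 34.2 CPM in GFP+ libraries. Only its AKVPL GFP- libraries stood apart, below all others, and the difference was -0.70 ± 0.16 (edgeR adjusted p = 0.00475).

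The smallest differences were those of Rfc3 (-0.18 ± 0.16, edgeR adjusted p = 0.434) and Mcm2 (-0.33 ± 0.19, edgeR adjusted p = 0.235). Mcm2 had 63.3, 66.2, 74.6 and 57.8 CPM in AKVPL GFP- and 104, 102, 105 and 98.7 CPM in AKVPL GFP+ libraries, which did not overlap. In AKVPSL it had 140.0, 98.9, 97.7 and 124 CPM in GFP- and 173, 164, 122 and 116 CPM in GFP+ libraries, which did. With the replicate number as a block, 26 of 35 genes were lower, where 3049 of 18072 tested genes were. Among the 26 were Mcm10 (-0.64, edgeR adjusted p = 0.00605) and Rrm2 (-0.76, edgeR adjusted p = 0.00731). With epithelial scaling only Gins1 passed, where 586 of 18072 tested genes were lower. The median was -0.20, with the median of all genes moved by 0.41. Of all calls in this test 33.85% were higher with TMM, 49.21% with DESeq2 size factors and 89.28% with epithelial scaling. The count was 5 without AKVPL GFP+ replicate 1, 6 without AKVPL GFP- replicate 4, 3 without AKVPSL GFP- replicate 1, which is the library with colon in its tissue field, 20 without AKVPSL GFP+ replicate 2, 6 without AKVPSL GFP+ replicate 3 or 4, and 6 with no filter on low counts. Of all tested genes, 1968 of 18405 were lower without AKVPL GFP+ replicate 1, and 1917 of 18377 without AKVPL GFP- replicate 4. Without AKVPSL GFP- replicate 1, 2065 of 18436 were lower, a share near that of the 3 genes. Lower genes numbered 2431 of 18425 without AKVPSL GFP+ replicate 2 and 1886 of 18429 without AKVPSL GFP+ replicate 3. They numbered 2088 of 18460 without AKVPSL GFP+ replicate 4 and 1542 of 28019 with no filter. Rfc2 and Chaf1a did not pass with the DESeq2 test. In this test 14 of 26 epithelial markers were lower (median -0.41), and 0 of 15 leukocyte and 1 of 12 fibroblast markers. Of 10 endothelial markers 1 was higher.

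Between the genotypes, GFP- cells of AKVPSL had more replication RNA than GFP- cells of AKVPL. Of the 35 genes 32 rose and 0 fell, where 32% of tested genes rose and 30.7% fell. All 35 values were above 0, from 0.25 to 1.74 with a median of 0.86, beside 0.00 over all genes. In 30 genes the 4 AKVPSL libraries lay above the 4 AKVPL libraries, against 27.3% of tested genes. The nucleotide supply genes had the highest group median (1.42, 3 of 3 rose), followed by the clamp and clamp loader genes (1.04, 5 of 5). That order did not hold when each gene was measured from the median of its own chromosome, where the medians were 0.92 for nucleotide supply, 0.72 for the clamp and its loader, and 1.03 for the lagging strand and single-strand binding genes. All 6 MCM2-7 genes rose, as did 1 of 2 loading genes, 6 of 7 activation genes, 5 of 6 polymerase and primase genes, and 3 of 3 in each of the last 2 groups.

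Rrm2, the subunit of ribonucleotide reductase that varies with the cell cycle, went from 14.5, 15.8, 15.5 and 15.1 CPM in AKVPL GFP- to 69.9, 55.4, 31.6 and 46.6 CPM in AKVPSL GFP-. The groups were far apart, with replicate 3 the lowest in AKVPSL, and the log2 fold change was 1.74 ± 0.27 (edgeR adjusted p = 4.1e-05). The clamp loader subunit Rfc5 went from 15.8, 15.8, 19.2 and 15.8 CPM to 55.5, 42.1, 46.1 and 45.7 CPM, by 1.51 ± 0.13 (edgeR adjusted p = 1.39e-08). Cdt1, which loads the helicase, went from 24.1, 30.0, 27.1 and 25.7 CPM to 77.6, 67.0, 59.2 and 66.2 CPM, by 1.34 ± 0.13 (edgeR adjusted p = 6.72e-08). Tyms, which makes thymidylate, rose by 1.42 ± 0.17 (edgeR adjusted p = 1.1e-06), and Fen1, which trims the flaps of the lagging strand, by 1.35 ± 0.17 (edgeR adjusted p = 1.33e-06). None of these 5 genes had overlapping groups, and neither had Rfc3, at 72.7, 71.8, 77.2 and 61.9 CPM in AKVPSL GFP- (1.12 ± 0.11, edgeR adjusted p = 1.03e-07).

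The genes that did not pass were Cdc6 (0.44 ± 0.19, edgeR adjusted p = 0.0527), Mcm10 (0.32 ± 0.17, edgeR adjusted p = 0.115) and Pold1 (0.25 ± 0.14, edgeR adjusted p = 0.118). Pold1, the catalytic subunit of polymerase delta, had 35.4, 34.2, 38.8 and 28.9 CPM in AKVPL GFP- and 49.9, 45.9, 31.7 and 36.1 CPM in AKVPSL GFP- libraries, which overlap. Mcm10 had 19.3, 21.2, 13.3 and 12.8 CPM in AKVPSL GFP-, which overlap its AKVPL values given above. Pold1 and Mcm10 passed without replicate 3 of AKVPSL GFP-, Mcm10 and Cdc6 without its replicate 4, and Cdc6 without replicate 3 of AKVPL GFP-. The Pcna call (0.47 ± 0.18, edgeR adjusted p = 0.03) ended when replicate 4 of AKVPL GFP- or replicate 2 of AKVPSL GFP- was left out. It also ended with the DESeq2 test, DESeq2 size factors, either other filter on low counts, limma, epithelial scaling, or a fit of the GFP- libraries alone. Between these groups 10 of 12 fibroblast, 8 of 15 leukocyte, 4 of 10 endothelial and 7 of 8 mast cell markers were lower in AKVPSL, and 1 endothelial marker was higher. Of 26 epithelial markers 16 were higher and 2 lower. The sums are given above for each group. With epithelial scaling the median of the 35 genes was 0.49 and that of all genes moved by -0.37. Of the 35 genes 24 passed, where 3256 of 18072 tested genes were higher and 8556 lower. Of all calls, 51.08% were higher with TMM and 27.57% with epithelial scaling. The part of other cells in these values was not otherwise tested.

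In GFP+ cells the genotypes differed for fewer replication genes. In AKVPSL 15 of 35 rose and 0 fell, where 24.9% of tested genes rose and 28.1% fell. The median was 0.25, beside -0.05 over all genes, with values from -0.44 to 1.14. The groups did not overlap for 10 higher genes, against 25% of tested genes. The genes that rose were Mcm2, Mcm5, Mcm7, Cdt1, Gins2, Rfc2, Rfc3, Rfc5, Pola1, Pole2, Rrm2, Tyms, Fen1, Lig1 and Uhrf1, so 3 of the 4 Rfc subunits in the set were among them. These 3 lie on chromosome 5, where the median over all tested genes was 0.48, and Rfc4 lies on chromosome 16. Measured from the medians of their own chromosomes, Rfc2 was at 0.10, Rfc3 at 0.46, Rfc5 at 0.66 and Rfc4 at 0.39.

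Rfc5 went from 27.7, 25.8, 24.8 and 23.6 CPM in AKVPL GFP+ to 65.9, 63.7, 47.1 and 47.7 CPM in AKVPSL GFP+, by 1.14 ± 0.13 (edgeR adjusted p = 4.07e-07). Rrm2 went to 52.4, 56.4, 22.9 and 28.9 CPM, by 1.03 ± 0.26 (edgeR adjusted p = 0.00376), with AKVPSL replicate 3 just above the highest AKVPL library. Rfc3 went to 80.0, 82.3, 64.3 and 63.5 CPM, by 0.94 ± 0.11 (edgeR adjusted p = 9.32e-07), and its sort difference was the smallest of the 35 in AKVPL. Rfc2 went from 65.9, 64.0, 63.8 and 64.8 CPM to 108, 114, 80.0 and 83.8 CPM, by 0.58 ± 0.11 (edgeR adjusted p = 0.000269), and in GFP- cells from 49.5, 52.8, 50.6 and 40.4 CPM to 107, 99.6, 102 and 89.6 CPM, by 1.04 ± 0.11 (edgeR adjusted p = 3.16e-07). Cdt1 went from 36.3, 39.7, 37.1 and 38.7 CPM to 78.1, 82.3, 54.5 and 57.2 CPM, by 0.84 ± 0.13 (edgeR adjusted p = 1.73e-05). In each of these 5 genes the genotypes were apart.

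Gins1 (-0.44 ± 0.20, edgeR adjusted p = 0.0705) and Mcm10 (-0.33 ± 0.17, edgeR adjusted p = 0.103) had the lowest values. Mcm10 stood at 25.2, 26.7, 19.8 and 19.0 CPM in AKVPSL GFP+, and replicates 1 and 2 lay inside the AKVPL GFP+ range while 3 and 4 lay under it. Pold1 had 52.6, 55.5, 61.7 and 55.0 CPM in AKVPL GFP+ and 54.0, 54.3, 44.3 and 40.9 CPM in AKVPSL GFP+ libraries, which overlap (-0.22 ± 0.14, edgeR adjusted p = 0.19). Without AKVPSL GFP+ replicate 2 Gins1 passed as lower (-0.65, edgeR adjusted p = 0.00999). Calls that ended without single libraries were those of Mcm5 and Gins2 (any 1 AKVPL GFP+ library, or AKVPSL GFP+ replicate 1 or 2), Lig1 (AKVPL GFP+ replicate 2, 3 or 4, or AKVPSL GFP+ replicate 1 or 2), Pola1 (AKVPL GFP+ replicate 3 or 4, or AKVPSL GFP+ replicate 1 or 2) and Pole2 (AKVPSL GFP+ replicate 2). Rfc4 passed without AKVPSL GFP+ replicate 3 and Cdc7 without AKVPSL GFP+ replicate 4. Of the marker lists, 10 of 15 leukocyte, 2 of 12 fibroblast and 2 of 8 mast cell markers were lower in AKVPSL GFP+ cells. Of 10 endothelial markers 2 were higher and 3 lower, and of 26 epithelial markers 6 were higher and 6 lower. Their part in these values was not tested.

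**Figure D4:**
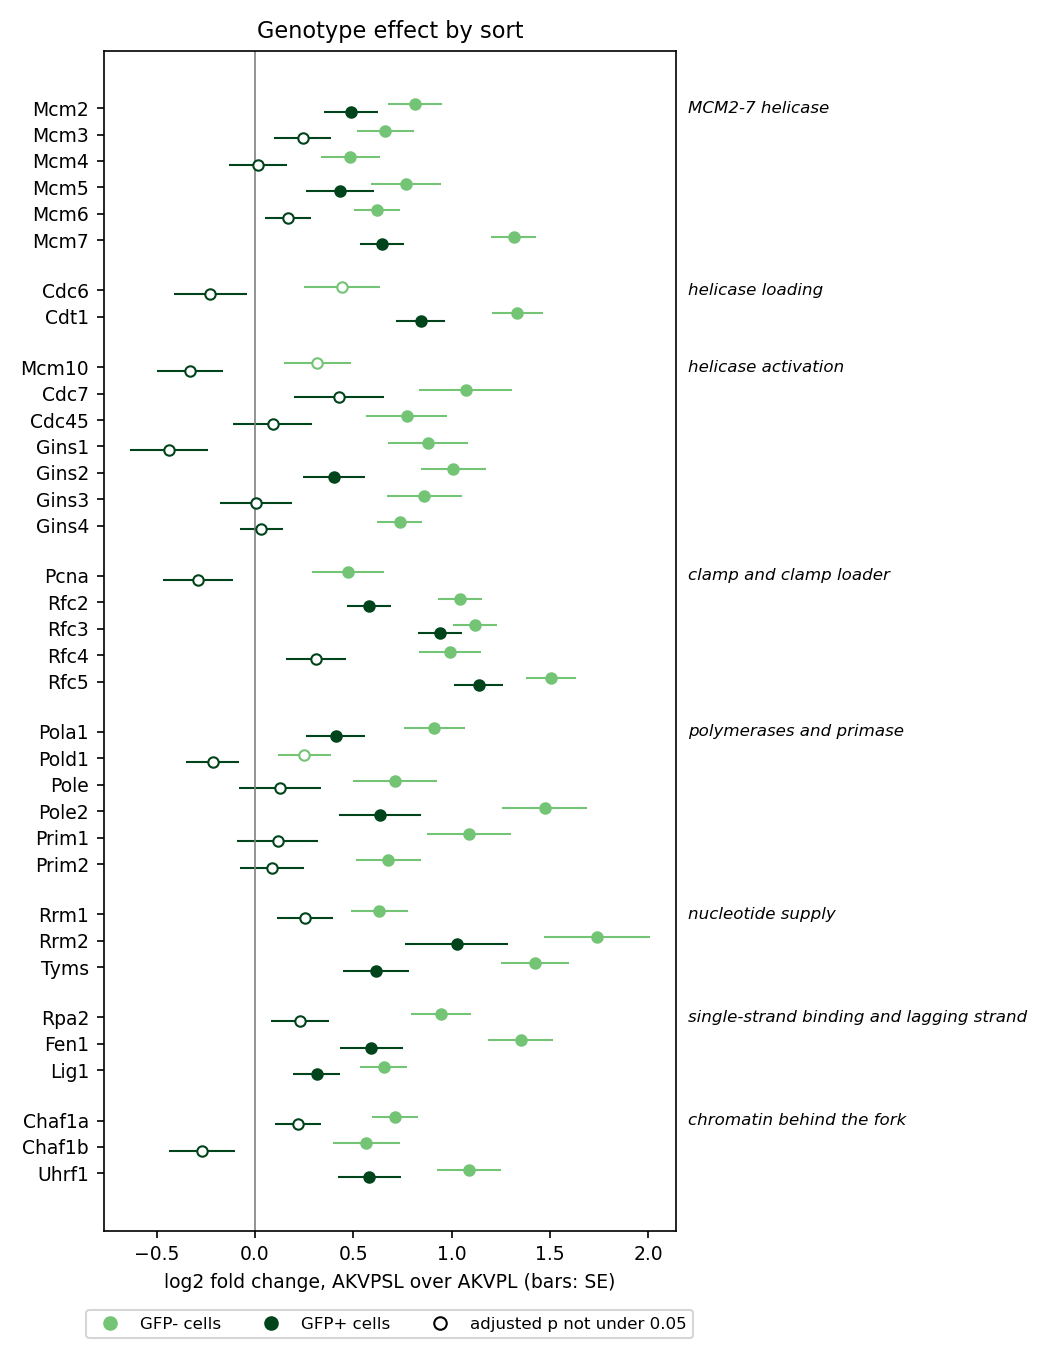
Log2 fold change of AKVPSL over AKVPL (± SE) for the 35 genes in GFP- and GFP+ cells, grouped by role, with filled symbols for an edgeR adjusted p under 0.05. In GFP- cells all 35 values are above 0, and in GFP+ cells they lie further left for every gene.

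Position on the genome went with part of the genotype difference. Of the 35 genes, 7 lie on chromosome 5 (Mcm7, Cdc7, Rfc2, Rfc3, Rfc5, Pole and Tyms), where the median over all tested genes was 0.48 higher in AKVPSL in GFP+ cells and 0.50 in GFP- cells. In GFP+ cells the median of the 7 was 0.62 and 5 of 7 rose, against 0.22 and 10 of 28 for the genes on other chromosomes. The median over all tested genes was above 0 on other chromosomes with members too: in GFP+ and GFP- cells it was 0.30 and 0.34 on chromosome 12 (Pole2, Rrm2), 0.24 and 0.23 on chromosome 6 (Mcm2), 0.23 and 0.20 on chromosome 19 (Fen1), and 0.21 and 0.17 on chromosome 8, with 5 members. Measured from the median of each gene's own chromosome, the member medians were 0.14 for the 7 and 0.26 for the 28. In GFP- cells the 7 had a median of 1.12 (7 of 7 rose) and the 28 a median of 0.77 (25 of 28), or 0.61 and 0.82 from their own chromosomes. All 35 genes lay above their own chromosome's median in GFP- cells, and 26 of 35 in GFP+ cells. Whether chromosome 5 or the other chromosomes named have another copy number in AKVPSL cells was not tested.

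**Figure D5:**
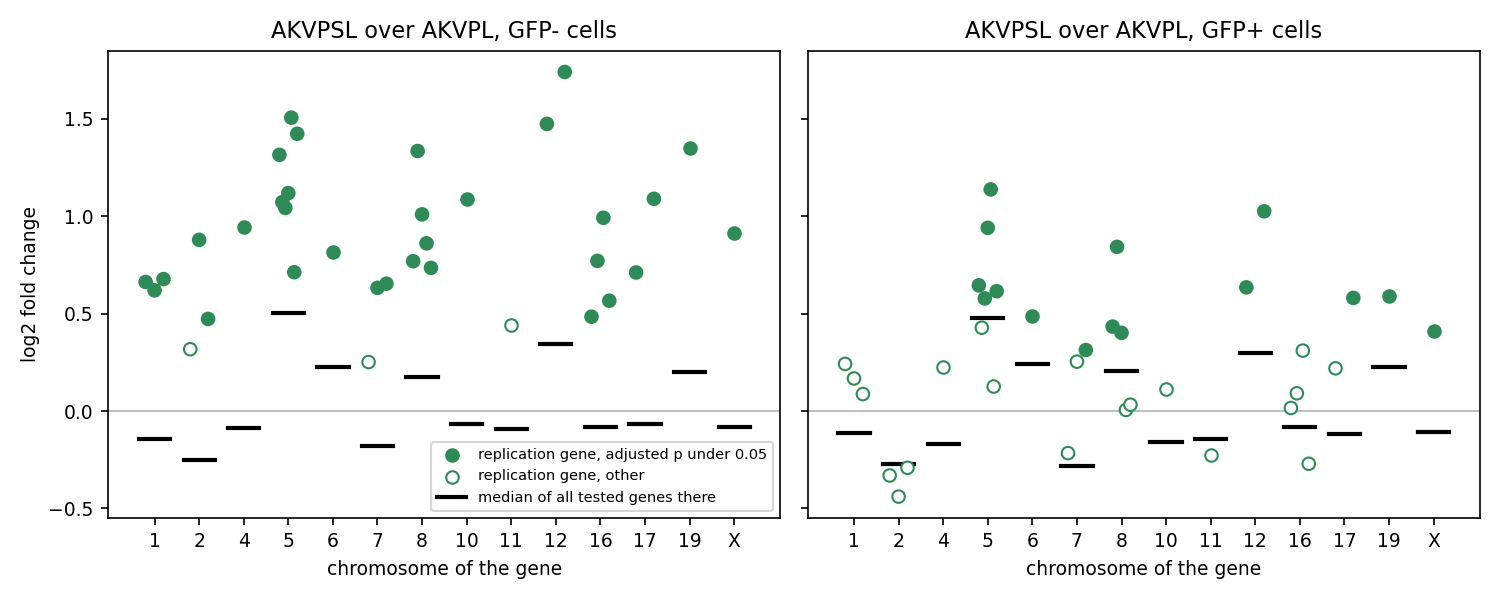
Log2 fold change of AKVPSL over AKVPL for each of the 35 genes by chromosome, in GFP- (left) and GFP+ cells (right), with a bar for the median of all tested genes there. The bar of chromosome 5 is at 0.50 and 0.48, and in GFP- cells every point lies above its bar.

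Genes with and without an E2F-type word in a promoter window were set side by side. In AKVPL the median sort difference was 0.74 for the 18 genes with such a word in a window and 0.66 for the 10 without, and in GFP- cells the genotype difference had medians of 0.89 and 0.88. The medians were 0.15 and 0.02 for the sort in AKVPSL and 0.31 and 0.36 for the genotypes in GFP+ cells. For the difference of sort effects they were -0.50 with a word (5 of 18 lower) and -0.72 without (5 of 10 lower), and in the sort in AKVPSL 5 of 18 and 1 of 10 were higher. Of all tested genes, 13.7% were lower in that difference and 22.4% higher in the sort in AKVPSL. Rrm2, without a word, had the largest genotype difference in GFP- cells, and Mcm6, with 3, had 0.62 there. These are descriptions of 28 genes, with no test.

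Other genes of DNA replication were counted in the same comparisons. Of 46 listed genes, 36 rose and 1 fell in GFP+ cells of AKVPL (median 0.57), beside 22.6% and 16.5% of all tested genes. Those that rose included the checkpoint mediator Clspn (1.40 ± 0.21, edgeR adjusted p = 4.83e-05), Topbp1, which helps to fire origins (0.77 ± 0.12, edgeR adjusted p = 6.23e-05), and the thymidine kinase Tk1 (1.02 ± 0.16, edgeR adjusted p = 8.72e-05). The 1 that fell was Pold4, the smallest subunit of polymerase delta (-0.74 ± 0.14, edgeR adjusted p = 0.000319), and in AKVPSL it fell by more (-1.41 ± 0.14, edgeR adjusted p = 8.27e-07), where 7 of the 46 rose and 5 fell, beside 22.4% and 24.6% of all tested genes. In GFP- cells 35 of 46 rose in AKVPSL and 3 fell, beside 32% and 30.7% of all tested genes. Dbf4, the partner of Cdc7, rose by 1.77 ± 0.13 (edgeR adjusted p = 3.13e-09), the origin recognition subunit Orc6 by 1.58 ± 0.12 (edgeR adjusted p = 3.87e-09), and the large clamp loader subunit Rfc1, which lies on chromosome 5 as well, by 1.11 ± 0.09 (edgeR adjusted p = 3.78e-09). The 46 genes were not measured from the medians of their own chromosomes. Mcm9, a helicase of DNA repair, was lower in both fractions, at -1.35 ± 0.08 (edgeR adjusted p = 2.45e-10) in GFP- cells and -1.55 ± 0.08 (edgeR adjusted p = 2.58e-11) in GFP+ cells, and Pold3 was lower in GFP+ cells (-1.24 ± 0.11, edgeR adjusted p = 1.53e-08). In GFP+ cells 12 of 46 rose, a share near the 24.9% of all tested genes, and 5 fell, beside 28.1%. For the difference of sort effects 17 of 46 were lower and 0 higher (median -0.54), beside 13.7% and 7.01% of all tested genes.

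Among 31 E2F and G1/S regulators, 17 rose and 2 fell in AKVPL GFP+ cells (median 0.37), beside 22.6% and 16.5% of all tested genes. In AKVPSL GFP+ cells 7 of 31 rose, a share at the background of 22.4%, and 3 fell, beside 24.6%. Cyclin A2 (Ccna2) rose by 1.21 ± 0.17 (edgeR adjusted p = 3.06e-05) in AKVPL, as did the repressor E2f7 by 1.11 ± 0.19 (edgeR adjusted p = 0.000188). Cdkn2a, which encodes a CDK inhibitor and the p53 regulator ARF, went opposite ways, at 0.84 ± 0.12 (edgeR adjusted p = 2.52e-05) in AKVPL and -0.82 ± 0.12 (edgeR adjusted p = 3.45e-05) in AKVPSL, a difference of -1.66 ± 0.17 (edgeR adjusted p = 3.37e-06). Between genotypes in GFP- cells 16 of 31 rose and 4 fell in AKVPSL, beside 32% and 30.7% of all tested genes, with Cdkn2a at 1.89 ± 0.12 (edgeR adjusted p = 3.43e-10), the G1 kinase Cdk6 at 1.14 ± 0.10 (edgeR adjusted p = 2.07e-08), cyclin D1 (Ccnd1) at 1.18 ± 0.11 (edgeR adjusted p = 4.12e-08) and E2f2, an activating E2F, at -2.72 ± 0.27 (edgeR adjusted p = 7.95e-08). In GFP+ cells 10 of 31 rose and 7 fell, beside 24.9% and 28.1% of all tested genes. The 31 genes were not measured from the medians of their own chromosomes either.

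The 26 mitosis genes had larger median differences between the fractions than the replication genes, a comparison given without a test. In AKVPL all 26 rose in GFP+ cells, with a median of 1.40, beside 0.71 for the 35, where 22.6% of all tested genes rose. In AKVPSL 18 of 26 rose, with a median of 0.56, beside 0.07 for the 35, where 22.4% of all tested genes rose. Mki67, a marker of dividing cells, had 101, 88.2, 77.8 and 84.9 CPM in AKVPL GFP- and 265, 254, 186 and 201 CPM in AKVPL GFP+. In AKVPSL it had 213, 204, 109 and 155 CPM in GFP- and 319, 319, 287 and 264 CPM in GFP+, so the fractions did not overlap in either genotype. Per library, the mean log2 CPM of the 35 minus that of the mitosis genes was 0.08, 0.19, 0.39 and 0.13 in GFP- and -0.57, -0.50, -0.20 and -0.50 in GFP+ libraries of AKVPL. In AKVPSL it was -0.15, -0.09, -0.02 and -0.13 in GFP- and -0.49, -0.40, -0.64 and -0.62 in GFP+ libraries. Replication genes were thus lower relative to mitosis genes in every GFP+ library than in any GFP- library. Between genotypes in GFP- cells the medians were closer, 1.09 for the mitosis genes and 0.86 for the 35. For the difference of sort effects 18 of 26 mitosis genes were lower and 0 higher (median -0.89), beside 13.7% and 7.01% of all tested genes.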

How the data were processed

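Cells were sorted by flow cytometry and RNA was extracted with a column kit, per the labels' protocols. Each deposited file gives 36528 NCBI Gene IDs with a count, the reads aligning uniquely to the gene model per the file headers, and an RPKM adjusted by a size factor by the authors, per the file headers. GSNAP and GRCm38 are named in the submitters' processing notes. Size factors and gene lengths are not explained there.

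Symbols came from RefSeq GRCm38.p6 (31049 IDs matched, 85%). Within groups, the 24 library pairs had chi-square values per degree of freedom of 9.05 to 73.6 over genes, far above sampling noise, so none was counted as a repeat. Counts were fitted with edgeR 4.0.16 in R 4.3.3: filterByExpr, TMM, 1 mean per group over 16 libraries, 12 residual degrees of freedom, robust quasi-likelihood F tests (2-sided), Benjamini-Hochberg over 18072 genes, threshold 0.05. The script was tested on simulated data. The SE was back-calculated from F and is approximate. Precision is limited by 4 libraries a group and by depth, 10881115 to 41601600 counts.

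GFP+ and GFP- libraries that share a replicate number deviated together from their group means (r 0.103 to 0.366 over genes, 8 pairs), so the replicate block is given beside the sort results it changes. Alternatives were DESeq2 1.42.0 and its size factors, scaling on 26 epithelial genes, other filters, fewer groups, the block, limma 3.58.1 on log2(RPKM + 1), and leaving out each library. Values in every library are given for the gene of each role with the highest mean CPM and the 2 largest and 2 smallest changes per comparison. Other genes named are up to 4 per list with the smallest adjusted p. Pold4 in the sort in AKVPL was picked after its value was seen. The 35 genes and all lists were chosen with earlier results of these data known.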

Additional observations from a re-analysis of the deposited data

Results flagged for a closer look

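Among 144 sets of 4 values (35 genes and their sum in 4 groups), 9 had 1 library far from the other 3 by Dixon's test at the 95% level, where chance flags about 1 in 20. AKVPL GFP- replicate 4, the library with the fewest counts, was the lowest for Mcm3 (55.0 CPM, the others 68.1 to 69.3), Mcm4 (54.7 CPM, the others 65.2 to 65.8), Mcm6 (78.4 CPM, the others 95.0 to 95.6), Pcna (6.69 CPM, the others 10.4 to 11.0) and Lig1 (36.2 CPM, the others 47.9 to 49.9). Rfc5 was highest in AKVPL GFP- replicate 3 (19.2 CPM, the others 15.8). Pole2 was highest in AKVPL GFP+ replicate 1 (12.4 CPM, the others 9.37 to 9.57), and Prim2 lowest in AKVPL GFP+ replicate 4 (13.6 CPM, the others 18.0 to 18.8). Rpa2 was lowest in AKVPSL GFP- replicate 4 (23.2 CPM, the others 32.2 to 33.4).

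The sort difference itself differed between the genotypes, by the edgeR interaction test, for 13 genes. The log2 values (AKVPSL minus AKVPL) were -1.32 for Gins1, -0.97 for Prim1, -0.86 for Gins3, -0.84 for Chaf1b, -0.81 for Tyms, -0.76 for Pcna, -0.76 for Fen1, -0.72 for Rpa2, -0.70 for Gins4, -0.68 for Rfc4, -0.67 for Mcm7, -0.49 for Chaf1a and -0.46 for Rfc2.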

How the results depend on the processing

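Of the 175 gene-level results, 169 kept their direction and call with the DESeq2 test, 166 with DESeq2 size factors, 134 with epithelial scaling and 150 with the replicate block. The 1 reversal was Rfc2 in the sort in AKVPL, at -0.0082 with epithelial scaling. Under that scaling 13 genes were higher in AKVPL GFP+ cells (median 0.28), where 593 of 18072 tested genes were higher. The median between genotypes in GFP- cells was 0.49. In the difference of sort effects 1 gene was lower (median -0.20), where 586 of 18072 tested genes were. With no filter on low counts 6 were lower in that difference, where 1542 of 28019 tested genes were. For the sort in AKVPSL, fitting only its groups left 1 gene higher, where 3173 of 16516 tested genes were. With the replicate block 11 were higher and 2 lower there, where 4554 and 4712 of 18072 tested genes were. In the difference 26 were lower, where 3049 of 18072 tested genes were. The block changed no other sort call than those given above. Between genotypes, libraries with the same number had r of -0.04 to 0.28, a range that overlaps that of the sort pairs. Whether the numbers mark a batch shared by the genotypes was not tested. The block gave 2 lower genes in GFP+ cells, Mcm10 and Gins1, where 5292 of 18072 tested genes were lower. It added Cdc6 and Mcm10 in GFP- cells. In GFP+ cells 1 gene, Gins1, was lower with at least 10 counts in every library, where 3903 of 13997 tested genes were. With limma on log2(RPKM + 1) 1 gene was lower in GFP+ cells, where 4613 of 18072 tested genes were. The limma fit gave medians of 0.63 in GFP- cells and -0.40 for the difference on that compressed scale. The cause of these changes was not tested.

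Leaving out 1 library at a time, 27 to 32 genes were higher in AKVPL GFP+ than GFP- cells, with medians of 0.64 to 0.77. These fits tested 18319 to 18465 genes, and in this comparison 3124 to 3949 of all tested genes were higher, with medians of 0.13 to 0.14. The same comparison in AKVPSL gave 1 to 11 higher, 0 to 1 lower and medians of -0.09 to 0.17. Of all tested genes, 2952 to 3934 were higher and 3821 to 5341 lower there. Between genotypes in GFP+ cells, 10 to 16 were higher and 0 to 1 lower, with medians of 0.21 to 0.35. Of all tested genes, 4111 to 4327 were higher and 4363 to 5032 lower in GFP+ cells. In GFP- cells 31 to 34 were higher, with medians of 0.82 to 0.95, where 5502 to 5973 of all tested genes were. The difference of sort effects had 3 to 20 lower and medians of -0.74 to -0.51, where 1886 to 2923 of all tested genes were lower. Of the calls made, 13 of 32, 1 of 7, 10 of 15, 24 of 32 and 1 of 13 held under every alternative, in the order of the preceding sentences. How far depth limits low genes such as Cdc6 (5.42 to 13.2 CPM) was not tested.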
